A study of Rattus norvegicus with 2 samples.

Results

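Potassium channel genes were followed through the cell types of rat dorsal root ganglia (DRGs), the ganglia that hold the cell bodies of sensory neurons with their glia and vessels. The set comprises every gene symbol that begins with Kcn, 92 of 30017 symbols in the counts, and was chosen by symbol without the use of any measured level. Single cells came from male Sprague-Dawley rats, 8 weeks old on purchase. The control library pooled the L3 to L6 DRGs of both sides from 5 rats that received citrate buffer alone. The library of diabetic peripheral neuropathy (DPN) pooled the same ganglia of 5 rats at 8 weeks after a single intraperitoneal dose of streptozotocin (STZ), 65 mg/kg in citrate buffer, a toxin of pancreatic beta cells, and only rats that became hyperglycaemic were used. The ganglia of both groups were digested with collagenase and trypsin, and dead cells were removed. The control file held 11011 cell barcodes and the DPN file 13168, of which 38 barcode sequences occurred in both.

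Each condition is 1 library of pooled rats, so that no test between conditions was possible and every interval given here covers counting error only. The 3′ end of each captured transcript carries a unique molecular identifier (UMI), which makes a transcript count once whatever its length. Levels are UMIs of a gene per 1000000 UMIs of the cells in question (CPM), with exact Poisson 95% intervals. A gene is called past 1.5-fold if its DPN/control ratio of CPM was at least 1.5 or at most 0.667, among genes with at least 100 UMIs over both libraries.

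Potassium channels let potassium leave the cell and so set the resting potential, end action potentials and limit repetitive firing. Voltage-gated channels are tetramers whose silent subunits and accessory subunits tune the conducting ones, whereas two-pore channels carry the background leak and inward rectifiers hold the membrane near the potassium equilibrium. In peripheral ganglia and nerves, glia also clear the potassium that firing neurons release, and in vessels potassium channels set the tone of the muscle layer.

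Cells were taken by marker genes rather than clusters, each with under 20% mitochondrial UMIs. Satellite glial cells (SGCs; Fabp7 and Tyrp1) numbered 4135 (control) and 3012 (DPN), with 13783 and 11145 UMIs per cell in the median. Myelinating Schwann cells (SCs; Prx, Mag and Cldn19) numbered 347 and 481, with medians of 4614 and 3655 UMIs. Endothelial cells (Cldn5, Flt1 and Cdh5) numbered 802 and 1213, and smooth muscle cells (Myh11) 385 and 584. Neurons (Stmn2, Prph and Snap25) numbered 186 and 701, and there the libraries stood apart, with a median of 77458 UMIs per cell in the control against 970 in the DPN library. Neurons of at least 10000 UMIs numbered 114 and 186 and held 99.2% and 97.4% of all neuron UMIs, so that sums over neurons rest on these cells in both libraries.

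Markers that the gates did not use were in place. Neuron markers (8 of 8 genes found, among them Avil, Nefl and Calca) summed to 13522 CPM in control and 11990 CPM in DPN neurons, myelin markers to 41332 and 33946 CPM in myelinating SCs, and the contractile genes Tagln, Acta2 and Des to 12183 and 7936 CPM in smooth muscle. In SGCs the marker Sfrp5 stood at 833 and 750 CPM and Slc1a3 at 65.9 and 101 CPM, and 2 of 3 endothelial markers, Emcn and Prom1, summed to 1563 and 1507 CPM in endothelium. RNA of other cells was also present and differed between the libraries. The 8 neuron markers were all detected in SGCs, at 141 CPM in the control against 226 CPM in the DPN library, and likewise summed to 197 and 570 CPM in myelinating SCs, 97.4 and 185 CPM in endothelium and 216 and 469 CPM in smooth muscle.

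Of the 92 genes, 89 had a UMI in at least 1 of the 5 gates and 51 reached 100 UMIs in at least 1 gate. Kcnk6 and Kcns2 had no UMI in any barcode, and Kcnk16 had none in gated cells. By family, the set holds 15 conducting voltage-gated subunits (Kcna to Kcnd), 10 silent subunits, 5 M-type subunits (Kcnq), 8 EAG or ERG subunits (Kcnh), 15 inward rectifiers (Kcnj), 14 two-pore channels (Kcnk), 8 calcium- or sodium-activated channels and 17 accessory or regulatory genes.

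The bases before the start of 3 genes are shown because each had its highest level of the 5 gates in a non-neuronal one in both libraries, Kcna2 in myelinating SCs, Kcnj8 in smooth muscle and Kcnn3 in SGCs. They are the 250 bases upstream of the RefSeq start on GRCr8, written 5′ to 3′ on the strand of the gene, at chr2:197393280-197393529 (plus strand), chr4:177246549-177246798 (minus strand) and chr2:177234090-177234339 (plus strand). Capitals mark a GC box, GGGCGG or its reverse CCGCCC, the element that the Sp1 family of factors binds.
Kcna2: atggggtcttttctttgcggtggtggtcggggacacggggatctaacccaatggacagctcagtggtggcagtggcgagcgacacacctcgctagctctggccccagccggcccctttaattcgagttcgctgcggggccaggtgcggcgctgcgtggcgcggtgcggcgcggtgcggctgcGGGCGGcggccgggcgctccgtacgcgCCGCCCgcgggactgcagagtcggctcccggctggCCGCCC
Kcnj8: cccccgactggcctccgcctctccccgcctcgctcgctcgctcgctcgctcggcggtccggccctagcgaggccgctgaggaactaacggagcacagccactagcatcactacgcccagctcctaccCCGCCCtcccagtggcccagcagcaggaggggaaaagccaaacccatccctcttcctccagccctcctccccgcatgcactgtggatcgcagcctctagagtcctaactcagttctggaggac
Kcnn3: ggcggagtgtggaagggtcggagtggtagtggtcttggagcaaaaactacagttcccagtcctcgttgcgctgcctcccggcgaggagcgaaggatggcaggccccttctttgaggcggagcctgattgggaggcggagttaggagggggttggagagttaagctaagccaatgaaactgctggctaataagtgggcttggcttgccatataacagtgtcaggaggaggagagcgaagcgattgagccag
A GC box occurs 3 times before Kcna2, 1 time before Kcnj8 and not in these letters before Kcnn3, against at least 1 in 30.5% of 33469 promoter sequences of the same length. CpG pairs numbered 33, 18 and 11, against a median of 5 per promoter. TATAAA, found on either strand in 12.9% of promoters, occurs in none of the 3. These are descriptions of letters, from the 62 of 92 genes that the promoter table holds, and no binding was measured.

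Of the 5 gates, neurons held the most potassium channel RNA, and myelinating SCs followed. All Kcn genes together reached 1458 CPM (1439 to 1477) in control neurons and 1481 CPM (1465 to 1497) in DPN neurons. In myelinating SCs the sum was 449 CPM (423 to 477) in control and 678 CPM (645 to 713) in DPN cells, a ratio of 1.51 (1.39 to 1.63). Smooth muscle came next at 320 and 415 CPM. Pericyte-like cells, taken outside the gates by Rgs5, Abcc9 and Pdgfrb, had 738 and 844 CPM, between neurons and myelinating SCs. SGCs and endothelium were lowest in both libraries, at 133 and 175 CPM and at 148 and 146 CPM, and their order to each other was not the same in the 2 libraries. A gene had its highest level in the same gate in both libraries in 70 of 92 cases, of which 45 were highest in neurons, 7 each in endothelium and smooth muscle, 6 in SGCs and 5 in myelinating SCs. In 22 genes that gate exceeded every other gate by at least 5-fold in both libraries, 20 of them in neurons and 2, Kcna1 and Kcnk1, in myelinating SCs. The same counts over all genes are not given here, so they do not set potassium channel genes apart from others. The 70 genes include some of very low level, such as Kcna10 at 0.202 and 0.0471 CPM in neurons. Near ties also count, such as Kcnj8 in the control library, with 61.3 CPM in smooth muscle and 57.9 CPM in endothelium.

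**Figure D1:**
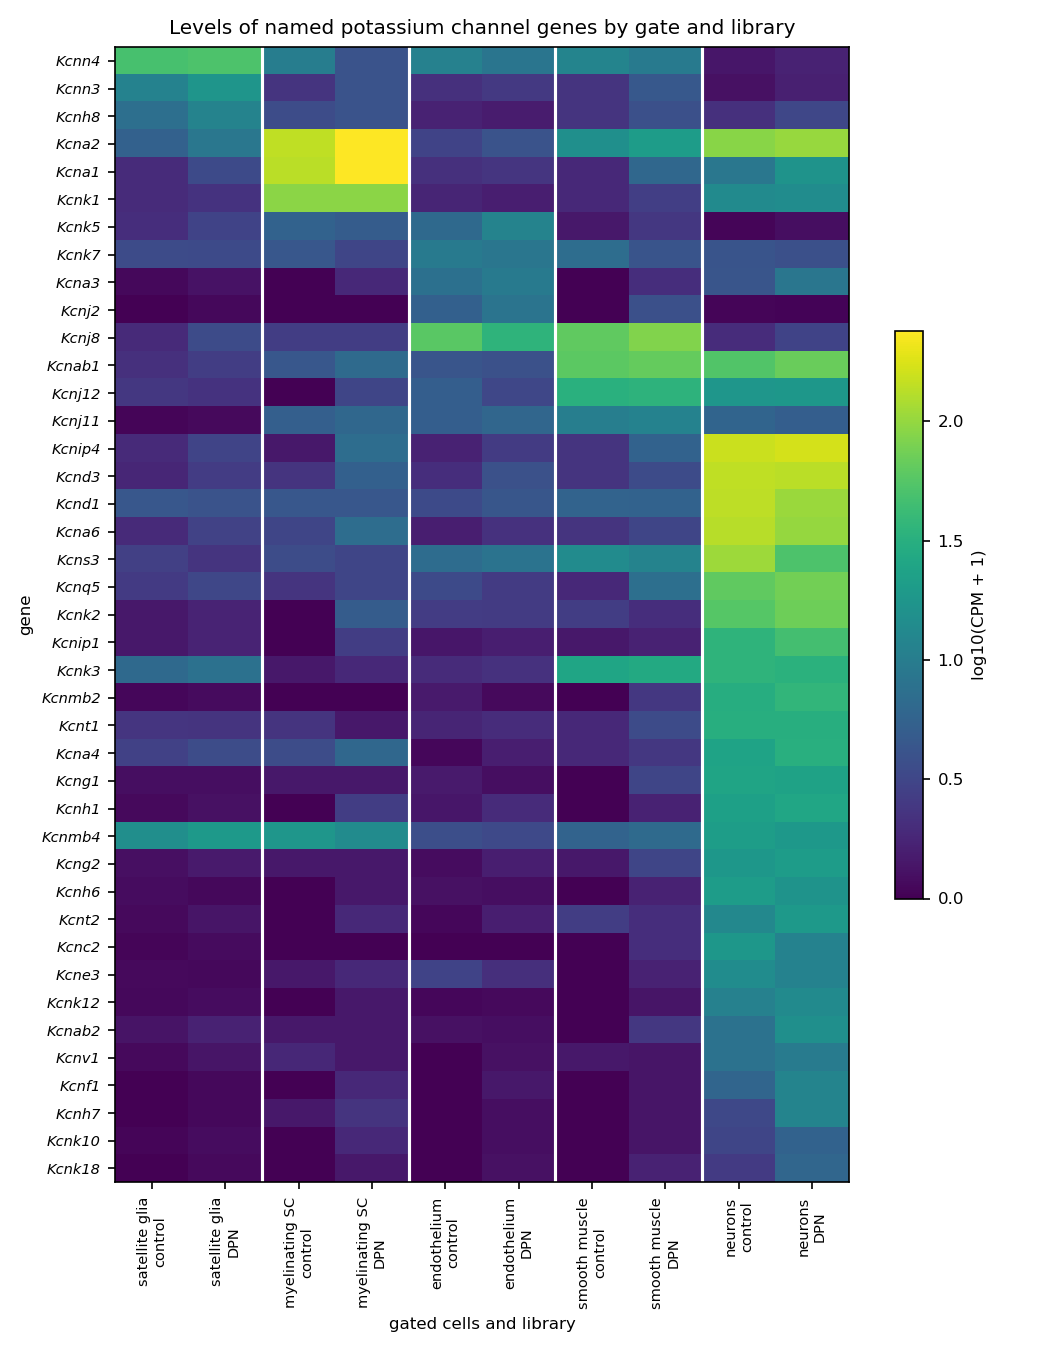
Level of 41 potassium channel genes named by rule (rows) in the 5 gates of each library (columns), as log10 of CPM plus 1. Most rows are brightest in the 2 neuron columns, while Kcna1, Kcna2 and Kcnk1 stand out in myelinating SCs, Kcnn4 in SGCs and Kcnj8 in the endothelium and smooth muscle columns.

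Myelinating SCs had 3 potassium channel genes with at least 100 UMIs, and each was higher there than in any other gate. Kcna1 and Kcna2 encode shaker-type voltage-gated subunits that form channels together and are best known from the axon beside the node of Ranvier. Kcna1 stood at 134 CPM (120 to 150) in the control against 239 CPM (219 to 259) in the DPN library, and Kcna2 at 140 CPM (126 to 156) and 236 CPM (217 to 257). These levels were far above those in neurons for Kcna1, 7.81 and 15.7 CPM, and 157% and 234% of the neuron level for Kcna2, 89.4 and 101 CPM. Kcnk1, a two-pore leak channel, stood at 92.2 CPM (80.4 to 105) and 91.4 CPM (79.5 to 105), against 12.7 and 13.3 CPM in neurons. For comparison, the list of neuron markers stood in these cells at 1.46% of its neuron level in the control library and 4.76% in the DPN one.

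Kcna1 and Kcna2 occurred in many of the same myelinating SCs. At least 1 UMI of Kcna1 was found in 161 of 347 control cells and 232 of 481 DPN cells, and of Kcna2 in 157 and 241 cells. Both were found in 94 and 147 cells and neither in 123 and 155, and since deeper cells have more UMIs of every gene this is a description of co-detection only. With every cell thinned to 1000 UMIs, Kcna1 was found in 15.6% of control (exact interval 11.9 to 19.8%) and 19.5% of DPN myelinating SCs (16.1 to 23.4%). The same share was 0.0967% and 0.332% in SGCs, which is the measured background of a cell type with little Kcna1. Kcnk1 was found in 10.1% (7.13 to 13.7%) and 6.24% (4.25 to 8.78%) of thinned myelinating SCs, and in 39.8% and 30.1% of them without thinning.

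Between the libraries, Kcna1 and Kcna2 were both past 1.5-fold in myelinating SCs and Kcnk1 was not. The DPN/control ratio was 1.77 (1.54 to 2.04) for Kcna1, from 318 and 551 UMIs, and 1.68 (1.46 to 1.93) for Kcna2, from 332 and 545 UMIs. For Kcnk1 the ratio was 0.991 (0.816 to 1.20). Thus 2 of 3 genes were past 1.5-fold, both higher in the DPN library, where 24.1% of 4601 genes in these cells were past 1.5-fold and 18.5% were higher. Both genes span few bases, 9.67 and 13.9 kb on GRCr8, and among the genes in that one of 4 span classes of equal size 7.69% were higher by 1.5-fold. The 2 ratios depended on which cells were kept. With cells of under 10% mitochondrial UMIs alone they were 1.06 (53 and 50 UMIs) and 0.982 (39 and 34 UMIs), so that neither remained past 1.5-fold, and with further mitochondrial gene entries, named otherwise than Mt-, counted as mitochondrial they were 1.51 and 1.37. In cells thinned to 1000 UMIs they were 1.49 and 1.40.

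SGCs expressed a different set, led by calcium-activated channels. Kcnn4, the intermediate-conductance calcium-activated channel, was the highest gene at 47.5 CPM (45.7 to 49.3) in control and 50.9 CPM (48.5 to 53.3) in DPN SGCs, a ratio of 1.07 (1.01 to 1.14). Kcnn4 was found in 42.4% of control and 36.7% of DPN SGCs, and after thinning to 1000 UMIs in 4.59% (3.98 to 5.28%) and 4.38% (3.68 to 5.18%). Neurons, which had little of it, stood at 0.404 and 0.706 CPM, with a UMI of Kcnn4 in 3.23% and 2.14% of unthinned cells at median depths of 77458 and 970 UMIs. The share among thinned smooth muscle cells was 0.519% and 0.685%. Among cells outside the gates, macrophage-like cells (C1qa, C1qb and Csf1r) had more Kcnn4 than SGCs, 116 and 93.0 CPM. Calcium- and sodium-activated channels took 45.3% of all potassium channel UMIs in control and 40.0% in DPN SGCs, against 4.07% and 5.16% in neurons. Outside the gates the share was also large, at 53.1% and 40.9% in macrophage-like cells. Cells with the non-myelinating Schwann markers Scn7a and Cdh19 had 33.4% and 22.8%, and the remaining cells outside the gates 38.9% and 31.1%.

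Kcnmb4, an accessory beta subunit of the large-conductance (BK) channel, followed at 14.1 CPM (13.1 to 15.1) and 18.1 CPM (16.7 to 19.6). Its pore subunit Kcnma1 was almost absent from SGCs, with 7 UMIs in control and 12 in DPN cells. Kcnn3, a small-conductance calcium-activated channel, stood at 10.4 CPM (9.61 to 11.3) and 16.4 CPM (15.1 to 17.8), a ratio of 1.58 (1.40 to 1.77). No other gate exceeded 3.53 CPM of Kcnn3 in either library, though cells outside the gates with the non-myelinating Schwann markers Scn7a and Cdh19 had 9.92 and 9.28 CPM. Kcnh8, of the EAG family, stood at 6.43 and 10.7 CPM (ratio 1.66, 1.44 to 1.93) and Kcnk3, an acid-sensitive leak channel, at 5.57 and 6.79 CPM (ratio 1.22, 1.02 to 1.45). The non-myelinating Schwann-like cells had more Kcnh8 than SGCs, 16.0 and 18.7 CPM. Their markers Scn7a and Cdh19, both detected, summed to 183 CPM in control and 368 CPM in DPN SGCs, a ratio of 2.02 (1.97 to 2.07), and the part of such cells in the ratios of Kcnn3 and Kcnh8 was not tested.

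Kcnj10, the inward rectifier best known for potassium uptake by SGCs and astrocytes, was low in these cells, at 4.02 CPM (3.53 to 4.57) in the control against 5.78 CPM (4.996 to 6.65) in the DPN library. Its ratio of 1.44 (1.18 to 1.74) lay within 1.5-fold. SGCs had the highest level of Kcnj10 of the 5 gates in both libraries, and neurons had 0 UMIs of it in the control against 3 in the DPN library.

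In SGCs, 12 of 24 genes with enough UMIs were higher by 1.5-fold in the DPN library and none was lower. Among all 10753 genes tested in SGCs, 27.9% were past 1.5-fold and 25.7% were higher. The median log2 ratio of the 24 genes was 0.58 against 0.19 over all genes. With ratios rescaled so that the median gene had no change, 9 were past 1.5-fold, 8 of them higher and 1 lower. The shares over all genes given above are those before rescaling. Kcnn3 and Kcnh8 were then within 1.5-fold, at 1.38 and 1.46. Beside Kcnn3 and Kcnh8, Kcna2 stood at 4.51 and 7.79 CPM (ratio 1.73, 1.45 to 2.06), Kcnk5 at 1.07 and 2.02 CPM (1.89, 1.32 to 2.71) and Kcnab1 at 1.14 and 1.72 CPM (1.51, 1.05 to 2.19). The largest ratios belonged to genes with few UMIs in SGCs. Kcnj8 stood at 0.912 and 2.52 CPM (ratio 2.76, 1.94 to 3.97), Kcna1 at 0.946 and 2.43 CPM (2.57, 1.80 to 3.68), Kcnip4 at 0.929 and 2.05 CPM (2.20, 1.52 to 3.20), Kcna6 at 0.929 and 1.96 CPM (2.11, 1.45 to 3.08) and Kcnd3 at 0.791 and 1.63 CPM (2.06, 1.37 to 3.12).

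Some of these low genes lay close to the trace of neurons in SGCs. Relative to their level in neurons, Kcna6, Kcnd3 and Kcnip4 stood in SGCs at 0.708%, 0.567% and 0.606% in the control library and at 1.98%, 1.22% and 1.22% in the DPN one. The neuron markers as a list moved with them, from 1.04% to 1.89% of the neuron level, and their part in these ratios was not tested. Kcna1 lay well above that trace, at 12.1% and 15.5% of its neuron level. Markers of myelinating SCs (3 of 3 detected), the gate with the most Kcna1, summed in SGCs to 679 and 459 CPM, a ratio of 0.675 (0.663 to 0.688). In myelinating SCs themselves these markers stood at 41332 and 33946 CPM and Kcna1 at 134 and 239 CPM. The part of such cells in the ratio of Kcna1 in SGCs was not tested. The UMIs of Kcna1 came from 40 control and 67 DPN SGCs, with the richest cell holding 16.4% and 4.88% of them. Those of Kcnj8 came from 28 and 45 SGCs, with the richest cell holding 15.1% and 10.6%. Pericyte markers (3 of 3 detected) stood in SGCs at 22.2 and 28.5 CPM, and their part in the ratio of Kcnj8 was not tested either. Kcnn3 (543 and 496 cells) and Kcnh8 (355 and 331) were spread over many more cells, with no cell above 0.831% of their UMIs.

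In vessels, Kcnj8 was the highest potassium channel gene of both the endothelial and the smooth muscle gate, and stood higher still in pericyte-like cells. It encodes the pore of the vascular ATP-sensitive potassium channel, whose regulatory subunit is encoded by the neighbouring gene Abcc9. Smooth muscle cells had 61.3 CPM (51.6 to 72.2) in the control against 83.7 CPM (73.3 to 95.01) in the DPN library. Cells outside the 5 gates with pericyte markers (Rgs5, Abcc9 and Pdgfrb; 187 and 313 cells) had 603 CPM (554 to 656) and 640 CPM (592 to 691), a ratio of 1.06 (0.946 to 1.19). In those pericyte-like cells Kcnj8 and the other inward rectifiers made up 85.8% and 79.3% of all potassium channel UMIs.

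Gated endothelium had 57.9 CPM of Kcnj8 (53.4 to 62.7) in the control library and 34.0 CPM (31.0 to 37.2) in the DPN one, a ratio of 0.587 (0.519 to 0.664). Nearly all of it came from cells that also held a UMI of the pericyte genes Rgs5 or Pdgfrb. The 580 control and 999 DPN endothelial cells without one, a division added after the values were seen, had 1.69 and 1.21 CPM of Kcnj8 from 10 and 12 UMIs, a ratio of 0.718 (0.284 to 1.85). In the same cells Abcc9 stood at 3.04 and 6.67 CPM from 18 and 66 UMIs, a ratio of 2.19 (1.29 to 3.93). The remaining cells had 132 and 120 CPM from 592 and 453 UMIs, and were deeper, with 17476 and 16727 UMIs in the median against 7687 and 7307. Over the whole gate, pericyte markers (3 of 3 detected) summed to 202 CPM in control and 124 CPM in DPN cells, of which Abcc9 made up 49.7 and 34.9 CPM. Smooth muscle markers (3 of 3 detected) summed to 162 and 89.0 CPM. The lower level of Kcnj8 in DPN endothelium moved with markers of wall cells, and the part of such cells was not tested.

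Over the whole endothelial gate, the other 9 tested genes were lower than Kcnj8 in both libraries. This order includes the Kcnj8 of cells with a UMI of Rgs5 or Pdgfrb. Of the 9 genes, 3 were higher by 1.5-fold in the DPN library. Kcnk5, a leak channel opened by alkaline pH, stood at 5.49 CPM (4.15 to 7.11) and 10.5 CPM (8.88 to 12.4), a ratio of 1.92 (1.40 to 2.66). Kcnj2, a strong inward rectifier of vessels, stood at 4.33 and 7.31 CPM (ratio 1.69, 1.18 to 2.46). Kcna3, best known from lymphocytes, stood at 6.54 and 8.48 CPM (ratio 1.30, 0.953 to 1.78), Kcnk7, a two-pore subunit, at 8.37 and 7.61 CPM (0.908, 0.677 to 1.22), and Kcnn4, known for endothelial hyperpolarization, at 10.0 and 7.46 CPM (0.745, 0.562 to 0.989). The remaining 3 tested genes, Kcns3, Kcnq1 and Kcnj11, stood between 4.14 and 7.02 CPM in both libraries, within 1.5-fold. With Kcnj8, 4 of 10 tested genes were past 1.5-fold in endothelium, 3 higher and 1 lower, where 23.3% of 9201 genes were past 1.5-fold, 18.7% higher and 4.58% lower. In the endothelial cells without Rgs5 or Pdgfrb, 2 genes were past 1.5-fold, among them Kcnk5 at a ratio of 1.503 (1.04 to 2.21), and Kcnj2 stood at 1.46 (0.955 to 2.27). The shares over all genes given above are those of the whole gate.

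Smooth muscle shared Kcnj8 with pericyte-like cells, and Kcnab1, Kcnj12 and Kcnk3 with neurons. Kcnab1, an accessory beta subunit of Kv1 channels, stood at 59.1 CPM (49.6 to 69.9) and 65.3 CPM (56.2 to 75.4), with intervals that overlap those of Kcnj8 in each library, beside 52.7 and 67.9 CPM in neurons. Kcnj12, a strong inward rectifier, stood at 31.5 and 33.5 CPM, near its level in pericyte-like cells of 26.7 and 29.1 CPM and above that in neurons of 16.8 and 17.0 CPM. Kcnk3 stood at 24.2 and 26.8 CPM, below its level in neurons of 34.3 and 32.3 CPM. Kcnmb1, the beta subunit by which smooth muscle BK channels sense calcium, had 13 and 25 UMIs in smooth muscle, 5.61 and 8.82 CPM, and 0 UMIs in SGCs and neurons of both libraries. None of 5 tested genes was past 1.5-fold in smooth muscle, with ratios from 1.06 for Kcnj12 to 1.37 for Kcnj8 among those named, where 22.4% of 5113 genes were past 1.5-fold, 18.4% higher and 4.01% lower.

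**Figure D2:**
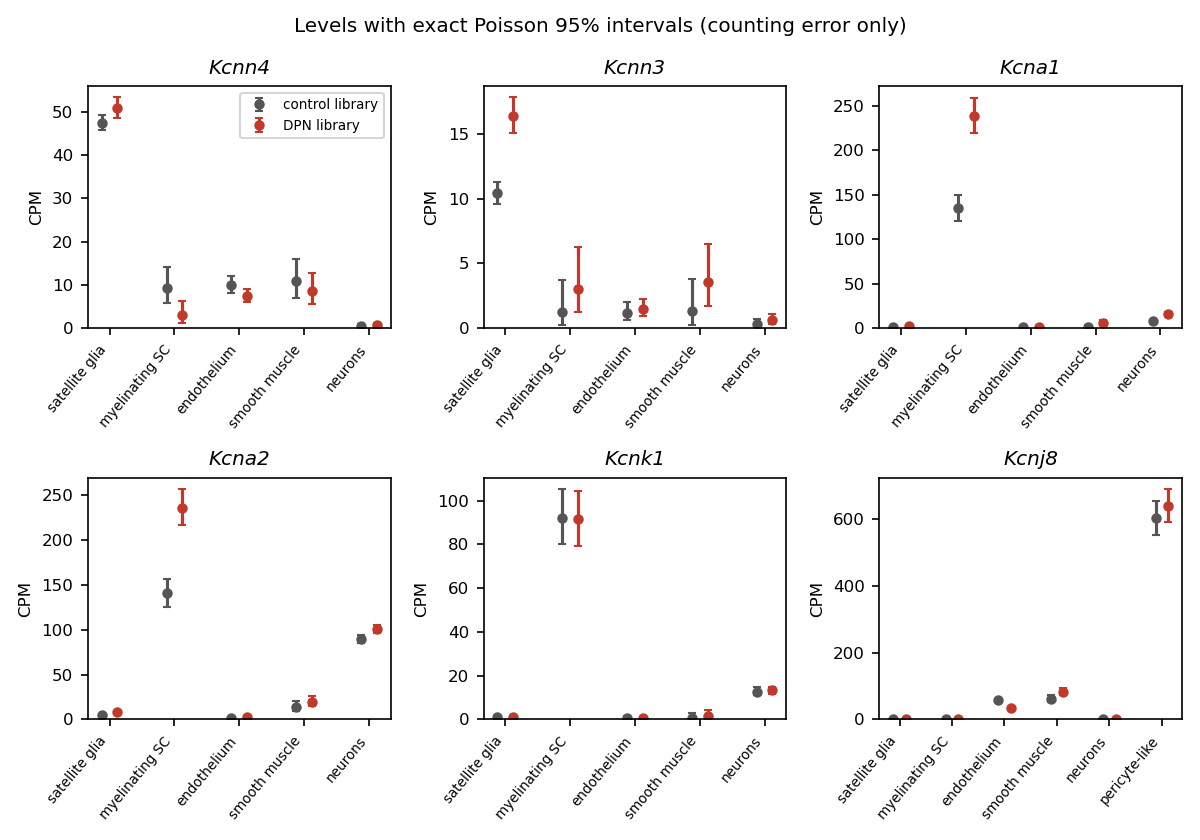
Level in CPM of 6 potassium channel genes in the gates of the control (grey) and DPN (red) library, with exact Poisson 95% intervals, and for Kcnj8 also in pericyte-like cells. Kcna1 and Kcna2 in myelinating SCs and Kcnn3 in SGCs show intervals that do not overlap between the libraries, whereas Kcnk1 in myelinating SCs stands at 92.2 and 91.4 CPM, and Kcnj8 is highest by far in pericyte-like cells.

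In neurons, conducting voltage-gated subunits made up 42.5% of potassium channel UMIs in the control against 39.4% in the DPN library. The A-type channels of the Kcnd family and their KChIP partners were the most abundant. Kcnip4, a KChIP, was highest at 153 CPM (147 to 160) and 168 CPM (163 to 174), followed by Kcnd3 at 139 CPM (134 to 146) and 134 CPM (129 to 139) and Kcnd1 at 139 CPM (133 to 145) and 104 CPM (99.5 to 108). The Kv1 subunits were led by Kcna6 at 131 and 98.9 CPM and Kcna2 at 89.4 and 101 CPM. Kcnq5 of the M-type family (61.4 and 74.2 CPM) and the mechanically gated leak channel Kcnk2 (55.4 and 70.8 CPM) formed the next rank.

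Genes at least 5-fold above every other gate in neurons came from most families. The KChIP gene Kcnip1 stood at 34.5 and 45.4 CPM, the BK beta subunit gene Kcnmb2 at 29.1 and 35.7 CPM and the sodium-activated channel gene Kcnt1 at 30.2 and 30.3 CPM. Of voltage-gated genes, the A-type Kv1 subunit Kcna4 stood at 22.8 and 31.0 CPM, the EAG channel Kcnh1 at 21.5 and 24.4 CPM and the ERG channel Kcnh6 at 19.7 and 15.6 CPM. The excess over the next gate was 62.0-fold in control and 16.3-fold in DPN cells for Kcna6, 32.1- and 18.2-fold for Kcnk2 and 29.2- and 22.6-fold for Kcnd1, beside the higher neuron marker level in the DPN cells of other gates, whose part was not tested. The accessory gene Kcne3 (13.5 and 10.3 CPM) and the silent subunit gene Kcnv1 (6.94 and 8.85 CPM) were likewise highest in neurons of the 5 gates. Outside the gates, cells with the fibroblast markers Dcn, Lum and Pdgfra had more Kcnk2 than neurons in the control library and less in the DPN one. Some of these genes were also shared with macrophage-like cells, where Kcnv1 stood at 5.85 and 8.26 CPM from 5 and 8 UMIs. Kcng2 stood there at 18.7 and 14.5 CPM from 16 and 14 UMIs and Kcnt2 at 10.5 and 28.9 CPM from 9 and 28 UMIs. Kcnh2, the cardiac ERG channel gene, was not part of this group but stood at 43.2 and 32.8 CPM.

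The M-type gene Kcnq3, known from sensory neurons, was barely counted in these files, with 3 and 6 UMIs over all neurons, 0.202 and 0.283 CPM. How the counting treated its 3′ end is not given, so that the low count was not read as absence. Kcnj11, an ATP-sensitive channel gene, stood at 4.85 and 4.10 CPM in neurons, below its 9.49 and 10.2 CPM in smooth muscle. In neurons it came from few cells, 15 of 186 control and 19 of 701 DPN ones, which differ in depth. Among neurons of at least 10000 UMIs it was found in 14 of 114 control and 17 of 186 DPN cells. Kcnk12, a silent two-pore subunit, stood at 10.2 and 12.8 CPM, and Kcng2, a silent voltage-gated subunit, at 17.0 and 19.5 CPM.

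Neurons were not uniform in their channels. The neurons of at least 10000 UMIs were divided at 20 UMIs of Calca and Tac1 per 10000, which encode the peptides CGRP and substance P, into 70 control and 109 DPN cells rich in these peptides and 44 and 77 cells poor in them. Calca itself stood at 9599 and 8786 CPM in the former and 398 and 439 CPM in the latter. The division used no potassium channel gene, and it was added after other results had been seen.

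Peptide-poor neurons held most of the A-type machinery. Kcnd3 stood there at 305 (control) and 279 CPM (DPN), against 14.3 and 12.3 CPM in peptide-rich neurons. Kcnip4 likewise stood at 296 and 333 CPM against 45.0 and 29.9 CPM, and Kcnip1, another KChIP, at 70.0 and 89.8 CPM against 6.91 and 8.28 CPM. Kcnd1 was shared more evenly, at 175 and 133 CPM against 111 and 80.3 CPM. The G-protein-gated rectifier gene Kcnj5 (12.6 and 10.6 CPM against 0.238 and 0.270 CPM), the silent subunit gene Kcnf1 (10.6 and 23.0 CPM against 0.476 and 0.720 CPM) and Kcnk1 (27.2 and 25.7 CPM against 2.03 and 2.52 CPM) followed the same pattern. Kcnip4 went opposite ways in the classes, with a DPN/control ratio of 1.13 (1.06 to 1.19) in peptide-poor and 0.664 (0.571 to 0.771) in peptide-rich neurons.

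Peptide-rich neurons held other channels. Kcng1, a silent voltage-gated subunit, stood at 41.6 and 42.0 CPM in them and was nearly missing from peptide-poor neurons, with 0 (control) and 1 (DPN) UMIs. Kcnk3 stood at 59.8 and 59.96 CPM against 0.316 and 1.36 CPM, Kcnq5 at 105 and 126 CPM against 4.90 and 15.0 CPM, and Kcnmb2, a BK beta subunit, at 47.8 and 60.3 CPM against 4.58 and 8.88 CPM. For each of these genes the order of the classes was the same in both libraries. The leak channels thus split, with Kcnk3 in peptide-rich, Kcnk1 in peptide-poor and Kcnk2 in both classes, at 66.6 and 94.3 CPM against 39.8 and 46.2 CPM.

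**Figure D3:**
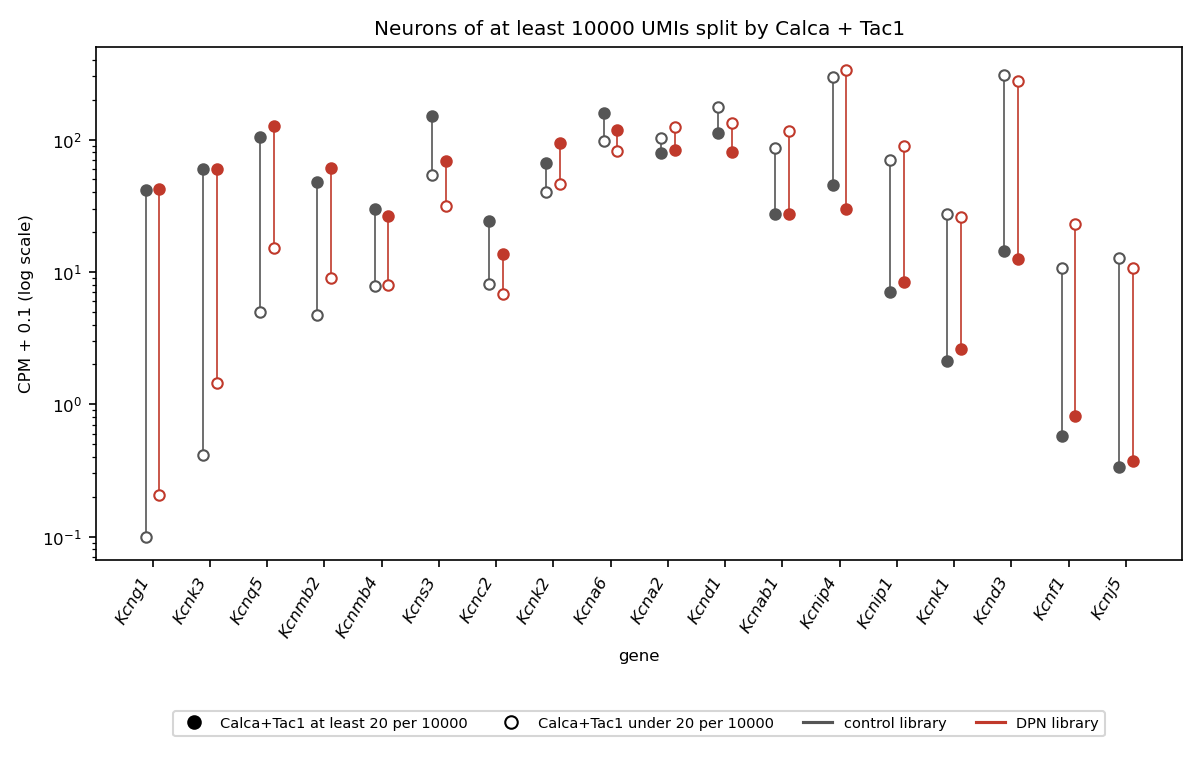
Level of 18 potassium channel genes, chosen after their values were seen, in neurons of at least 10000 UMIs, as CPM plus 0.1 on a log scale, in peptide-rich (filled) and peptide-poor (open) neurons of the control (grey) and DPN (red) library. Filled points lie above open ones for Kcng1, Kcnk3, Kcnq5 and Kcnmb2 and below them for Kcnd3, Kcnip1, Kcnip4, Kcnk1, Kcnf1 and Kcnj5 in both libraries.

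Between the libraries, 13 of 43 tested genes were past 1.5-fold in neurons, 11 higher and 2 lower in the DPN library, where 22.8% of 9761 genes were past 1.5-fold, 21% higher and 1.78% lower. Their median log2 ratio was 0.18 against 0.09 over all genes. The sum over all Kcn genes was nearly equal, with a ratio of 1.02 (0.998 to 1.03). The 5 genes with the highest mean of both libraries, Kcnip4, Kcnd3, Kcnd1, Kcna6 and Kcna2, lay within 1.5-fold, at ratios from 0.749 to 1.13.

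The most abundant gene past 1.5-fold was Kcns3, a silent subunit that alters the channels it joins and conducts nothing alone. It stood at 107 CPM (102 to 113) in control and 50.9 CPM (47.9 to 54.0) in DPN neurons, from 1592 and 1081 UMIs, a ratio of 0.475 (0.439 to 0.513). The level was lower in the DPN library in both classes of neurons, at 149 and 69.1 CPM in peptide-rich and 53.6 and 31.2 CPM in peptide-poor cells. The transcript was found in 98 of 114 control and 154 of 186 DPN neurons of at least 10000 UMIs, with a median over cells of 72.7 CPM (quartiles 24.9 and 129) and 41.2 CPM (11.7 and 79.3), and the richest cell held 5.97% and 3.19% of the UMIs. These deep neurons held all 1592 control UMIs of Kcns3 and 1066 of the 1081 DPN ones. In neurons thinned to a fixed depth only 3 and 17 UMIs were left, and the ratio was 1.504 (0.435 to 8.01). Silent subunits as a family, Kcns3 included, went from 161 to 114 CPM, 11.0% and 7.71% of potassium channel UMIs. The other tested silent subunits did not share the lower level of Kcns3. Their ratios were 2.20 for Kcnf1, 1.28 for Kcnv1, 1.14 for Kcng2 and 0.949 for Kcng1.

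Kcnc2, a fast voltage-gated channel, was the other gene lower by 1.5-fold, at 17.2 CPM (15.2 to 19.5) and 10.4 CPM (9.035 to 11.8), a ratio of 0.601 (0.4995 to 0.722). In peptide-rich neurons it stood at 24.2 and 13.6 CPM and in peptide-poor ones at 8.06 and 6.69 CPM, where the ratio of 0.830 (0.565 to 1.22) lay within 1.5-fold. Kcna6 and Kcnd1 were lower by less, at ratios of 0.754 (0.709 to 0.803) and 0.749 (0.705 to 0.796).

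Genes higher in DPN neurons were mostly of low level. Kcnh7, of the ERG family, had the largest ratio, with 2.29 CPM (1.59 to 3.20) in the control library and 10.8 CPM (9.48 to 12.3) in the DPN one, 34 and 230 UMIs, a ratio of 4.73 (3.29 to 6.996). It was found in 27 of 114 and 95 of 186 neurons of at least 10000 UMIs, and stood at 1.43 and 5.94 CPM in peptide-rich and 3.48 and 16.8 CPM in peptide-poor neurons. Kcnk18, the TRESK leak channel of nociceptors, stood at 1.55 CPM (0.982 to 2.32) and 5.13 CPM (4.21 to 6.19), a ratio of 3.31 (2.10 to 5.45), from 23 and 109 UMIs.

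Among Kv1 genes, Kcna1 was higher at 7.81 and 15.7 CPM (ratio 2.01, 1.62 to 2.50) and Kcna3 at 3.23 and 7.63 CPM (2.36, 1.70 to 3.33). The accessory Kv1 beta subunit gene Kcnab2 stood at 6.87 and 14.3 CPM (2.08, 1.66 to 2.63), and the silent subunit gene Kcnf1 at 4.92 and 10.8 CPM (2.20, 1.69 to 2.91). Kcnk10, a heat- and stretch-gated leak channel, stood at 2.15 and 4.61 CPM (2.14, 1.42 to 3.30). The BK pore gene Kcnma1 stood at 10.8 and 20.7 CPM (1.92, 1.60 to 2.31), the sodium-activated channel gene Kcnt2 at 11.9 and 18.3 CPM (1.54, 1.28 to 1.85) and the KChIP gene Kcnip3 at 2.69 and 4.47 CPM (1.66, 1.14 to 2.47). Other BK and sodium-activated subunits, Kcnmb4 (0.876, 0.750 to 1.02) and Kcnt1 (1.001, 0.886 to 1.13), were within 1.5-fold.

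**Figure D4:**
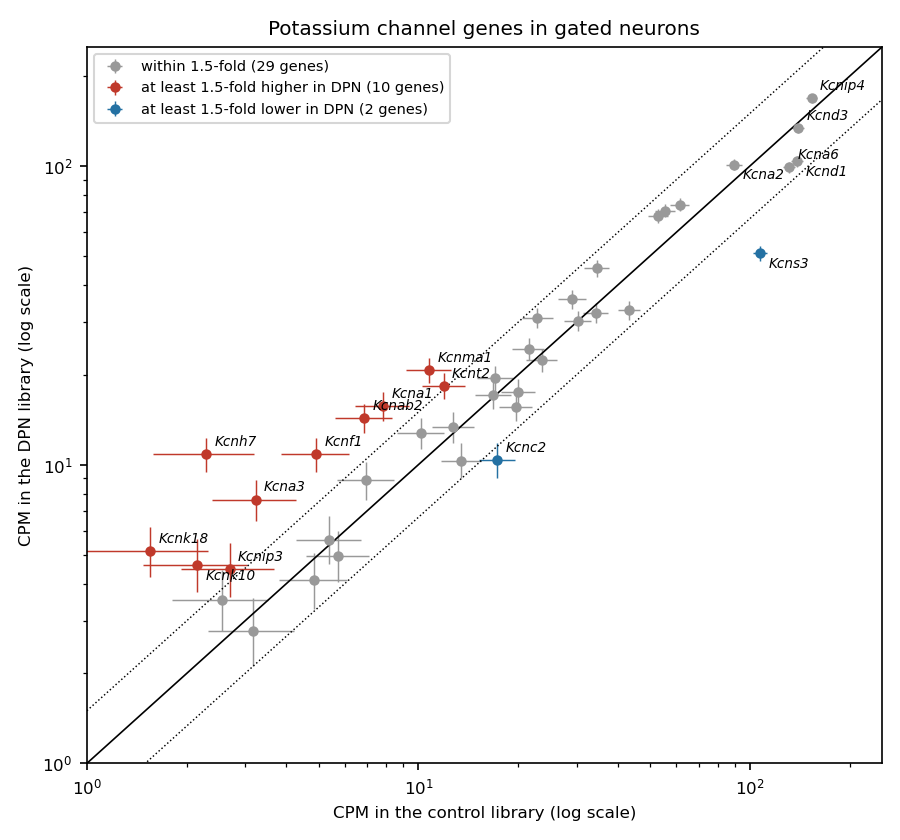
CPM of 41 tested potassium channel genes in control (horizontal) and DPN (vertical) neurons on log scales, with exact Poisson 95% intervals, the line of equality and dotted lines at 1.5-fold. Abundant genes lie near equality except Kcns3 at 107 and 50.9 CPM, and the 10 genes above the upper line are below 21 CPM in both libraries.

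Higher levels in the DPN library were more frequent among genes of long genomic span, for all genes and in every gate. With genes ranked by span on GRCr8 and cut into 4 classes of equal size, from the shortest to the longest, the share of tested genes higher by 1.5-fold went from 7.78% through 11.98% and 24.1% to 39.3% in neurons and from 10.3% through 15.8% and 29.8% to 45.8% in SGCs. Spans were known for 91.8% to 94.0% of genes tested. Of the potassium channel genes in neurons, 18 fell in the longest class, 6 of them higher, and 8 in the shortest, 3 of them higher. In SGCs, 6 of 8 genes in the longest class were higher and 2 of 4 in the shortest. Kcnh7, at 493 kb, and Kcnn3, at 152 kb, belong to the longest class, whereas Kcns3, at 56.7 kb, lies in the third class of neuron genes, of which 1.81% were lower by 1.5-fold. The part of gene span in any ratio was not tested.

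**Figure D5:**
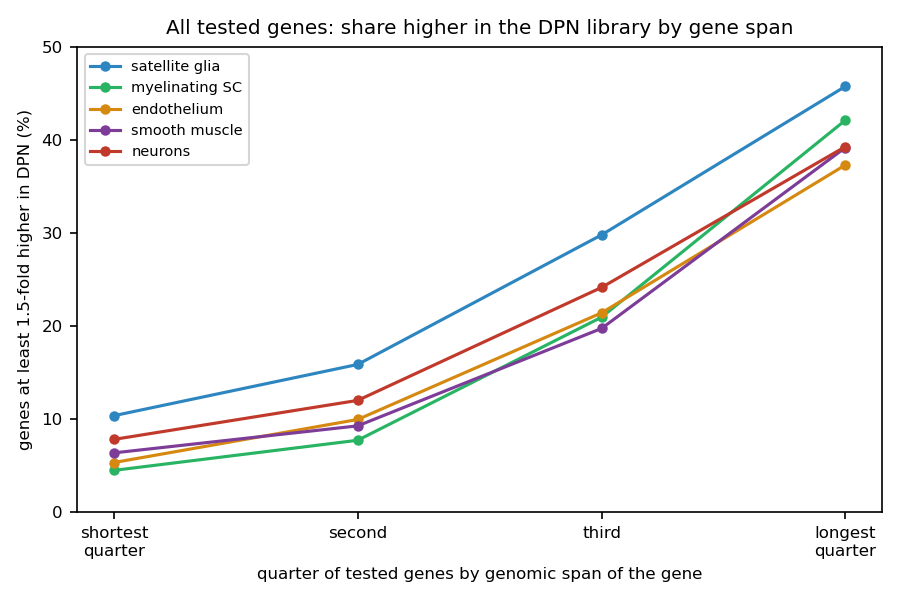
Percent of all tested genes that were at least 1.5-fold higher in the DPN library (vertical) by class of genomic span, 4 classes of equal size from shortest to longest (horizontal) in the 5 gates. Every line climbs from the shortest to the longest class, in neurons from 7.78% to 39.3% and in SGCs from 10.3% to 45.8%.

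Partners of potassium channels outside the Kcn symbols were taken from a list of 25 genes, 24 of which were found in the counts. In neurons, 6 of 19 tested partners were higher by 1.5-fold and 3 lower, where 21% and 1.78% of all genes tested were. The Kv4 partner Dpp6 was abundant and within 1.5-fold, at 213 and 192 CPM, whereas Dpp10 stood at 9.83 and 40.3 CPM (ratio 4.09, 3.43 to 4.91). The hyperpolarization-activated channel gene Hcn2 (3.64 and 10.6 CPM) was higher by a ratio of 2.91, while Hcn3 and Hcn4 were within 1.5-fold. Of genes of the Kv1 complex beside the node, Adam22, Adam23 and Dlg1 were higher, at ratios of 3.61, 3.71 and 2.90, and Dlg4 (48.8 and 30.8 CPM) and Lgi3 (27.1 and 16.0 CPM) were lower, at 0.632 and 0.591. Abcc8, the regulatory subunit that pairs with Kcnj11, stood at 4.58 and 2.78 CPM, a ratio of 0.607 (0.421 to 0.873).

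In glia and vessels fewer partners had enough UMIs. In SGCs, 4 of 11 tested were higher, where 25.7% of all genes were, Dpp6 (1.75), Adam23 (2.27), Dlg1 (1.94) and Slc12a2 (1.53), and Lrrc52, a gamma subunit of BK channels, was lower at 0.615. Slc12a2, the sodium-potassium-chloride cotransporter, was the most abundant of them, at 71.3 and 109 CPM. In myelinating SCs 1 of 3 tested was higher, Dlg1 at 15.2 and 30.3 CPM, in endothelium 1 of 6, again Dlg1, at 10.7 and 22.0 CPM, and in smooth muscle 1 of 3, Slc12a2 at 57.4 and 103 CPM. None was lower in these 3 gates, in which 18.5%, 18.7% and 18.4% of all genes tested were higher.

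Of the 92 genes, 41 stayed under 100 UMIs in every gate and entered no count of calls. Among them were the smooth muscle subunit genes Kcnmb1 and Kcne4, the latter at 1.73 and 1.76 CPM there, the inward rectifier gene Kcnj15, at 0.385 and 1.10 CPM in endothelium, and Kcne2 at 2.54 and 0.866 CPM in myelinating SCs. For 22 genes no gate was highest in both libraries, and of these only Kcnab1, between smooth muscle and neurons, and Kcnmb4, between neurons and SGCs, exceeded 3 CPM in any of the 5 gates. At this depth the limit of 3 UMIs, taken as what a count of 0 allows, corresponds in neurons to 0.202 CPM in the control against 0.141 CPM in the DPN library.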

How the data were processed

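Libraries were made with the 10x Genomics Single Cell 3′ v3 kit, 1 per condition. The authors demultiplexed and aligned reads with Cell Ranger 3.1.0, whose aligner is STAR. The STAR version and the genome build are not given in the sources used here. Whether reads were down-sampled to equal depth was not stated for these files. The deposited values are whole UMI counts per gene and barcode, before the authors' cell filters. Identifiers numbered 32623 and were summed by symbol.

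Cells were gated by marker UMIs per 10000: Fabp7 and Tyrp1 at least 12 for SGCs, Prx, Mag and Cldn19 at least 5 for myelinating SCs, Cldn5, Flt1 and Cdh5 at least 10 for endothelium, Myh11 at least 2 for smooth muscle, and Stmn2, Prph and Snap25 at least 25 for neurons. Cells needed 1000 UMIs (neurons 500) and under 20% UMIs of genes named Mt-. No doublets were called. Of the 5789 control and 5862 DPN cells in a gate, 65 and 119 passed more than 1 and counted in each, and an alternative left them out. Total UMIs were 121101966 and 115409375 over all barcodes, and per gate from 2309473 to 58138936. Pecam1 and Cntnap2 had no symbol in the counts.

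UMIs were summed per gate and library. Intervals are exact Poisson for levels, exact conditional binomial for ratios and Clopper-Pearson for shares, all at 95%, and cover counting error only. With 1 library of pooled rats per condition no test was made, and spread between rats could not be measured. The scripts (Python 3.11.15, numpy 2.4.6, scipy 1.17.1, pandas 2.3.3, matplotlib 3.10.9) were tested on simulated data.

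In each gate, among genes with at least 100 UMIs over both libraries, the named genes were the 6 highest by mean CPM and up to 5 with the highest and 5 with the lowest ratios past 1.5-fold. Added to these were genes at least 5 times the next gate in both libraries, and Kcnk12, Kcnj11, Kcnd1, Kcnk2, Kcng2 and Kcnq5, which the study names. Any other gene that the text names was picked with its values in view. The genes and lists were chosen with earlier results of these data known. Gene spans and promoter sequences are from RefSeq GRCr8, where all 92 symbols were found. Alternatives changed cell filters, gate thresholds, depth, thinning, scaling and the UMI minimum. A few genes are not reported here by name, and remain in the sums and counts.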

Additional observations from a re-analysis of the deposited data

Results flagged for a closer look

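Kcnj8 went opposite ways between the libraries in 2 cell types. The DPN/control ratio was 2.76 (1.94 to 3.97) in SGCs, where Kcnj8 had 53 and 85 UMIs, and 0.587 (0.519 to 0.664) in endothelium, where it had 602 and 465 UMIs. With 1 library per condition the difference between the cell types was not tested. In both gates Kcnj8 came from few cells, 28 and 45 SGCs and 157 and 148 endothelial cells, and in pericyte-like cells, where its level was highest, the ratio was 1.06 (0.946 to 1.19).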

How the results depend on the processing

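No paired analysis was possible because control and DPN rats gave 1 library each. The highest gate stayed above the next for 37 to 41 of 41 named genes under each alternative. Of 328 alternative values of this difference, 225 stayed close to the reported value, 93 moved and 10 turned direction. Of 590 alternative values of 51 ratios, 472 stayed close to the reported value, 110 moved and 8 turned direction. Turning was counted only for ratios reported as past 1.5-fold. Other ratios that crossed 1 were counted as close or moved, such as Kcnk2 in neurons, from 1.28 to 0.311 at its lowest. The count past 1.5-fold in SGCs (12) became 0 at a mitochondrial limit of 10%, where 1 gene had enough UMIs, 7 with further mitochondrial gene entries (named otherwise than Mt-) counted as mitochondrial, 4 with doubled gate thresholds, 0 after thinning, where 1 gene had enough UMIs, 21 at a minimum of 20 UMIs and 4 at 400. In myelinating SCs (2) it became 0 at the 10% limit, 1 with those entries, 0 after thinning and 4 at 20 UMIs. In endothelium (4) it became 0 after thinning, where no gene had enough UMIs, 11 at 20 UMIs, 1 at 400 UMIs and 2 without Rgs5 or Pdgfrb. In smooth muscle (0) it became 1 with those entries, 1 at depths of 2000 and 5000 UMIs and 4 at 20 UMIs. In neurons (13) it became 0 within 4 median absolute deviations (MADs) of genes and UMIs and 0 after thinning, where no gene had enough UMIs, and 6 at 400 UMIs. The shares over all genes given earlier are those of the main counts and do not apply to these alternatives. The median gene of SGCs stood at a log2 ratio of 0.19, and in the other gates at no more than 0.09.

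Of the ratios reported as past 1.5-fold, those that turned were, within 4 MADs, Kcnf1 (0.723), Kcnk10 (0.482) and Kcnt2 (0.643) in neurons. At the 10% limit they were Kcna2 in myelinating SCs (0.982) and Kcna3 in neurons (0.765). After thinning they were Kcna1 in SGCs (0.981), Kcnab2 in neurons (0.663) and Kcns3 in neurons (1.504, from 3 and 17 UMIs). The log2 of a gene's highest gate over the next turned within 4 MADs for Kcnab1 (-0.0452) and Kcnmb4 (-1.01), at the 10% limit for Kcnk3 (-0.54) and Kcnk5 (-0.13), with doubled thresholds for Kcnj8 (-0.28) and at a depth of 5000 UMIs for Kcnab1 (-0.00401). After thinning it turned for Kcna3 (-0.79), Kcnk3 (-0.62), Kcnk7 (-0.15) and Kcnmb4 (-1.16). The cause of each was not tested, except that thinning and the MAD limit leave few UMIs or remove deep neurons by construction. The neuron and endothelial subsets were chosen after seeing the data.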

Other observations

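Outside the 5 gates, some potassium channel genes stood higher than in any gate. Macrophage-like cells (157 and 210 cells) had 116 and 93.0 CPM of Kcnn4, 30.4 and 45.5 CPM of the leak channel gene Kcnk10 and 9.36 and 6.20 CPM of Kcnk13, a two-pore channel known from microglia. They also had 16.4 and 13.4 CPM of Kcna3, above the 6.54 and 8.48 CPM of endothelium, from 14 and 13 UMIs. Non-myelinating Schwann-like cells (505 and 2168 cells) had 16.0 and 18.7 CPM of Kcnh8, and shared Kcnn4 (34.1 and 26.2 CPM), Kcnmb4 (22.9 and 23.2 CPM) and Kcnn3 with SGCs.

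Fibroblast-like cells (212 and 352 cells, by Dcn, Lum and Pdgfra) had 89.8 CPM of Kcnk2 in the control and 62.0 CPM in the DPN library, a ratio of 0.691 (0.545 to 0.877), above its level in neurons of 55.4 CPM in the control and below that of 70.8 CPM in the DPN library. Kcnj13, an inward rectifier, stood in them at 4.02 and 8.40 CPM. Pericyte-like cells had 26.7 and 29.1 CPM of Kcnj12 beside Kcnj8.

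Several pairs of these genes are neighbours in the RefSeq annotation. Kcna3, Kcna2 and Kcna10 lie side by side on chromosome 2, and Kcna5, Kcna1 and Kcna6 on chromosome 4. Among the 5 gates, 1 gene of each cluster was led by myelinating SCs, Kcna2 and Kcna1, while the neighbour Kcna6 was highest in neurons. The neighbour Kcna3 was highest in endothelium, but in the DPN library by little, at 8.48 CPM against 7.63 CPM in neurons. That order of endothelium and the next gate turned after thinning. Kcnj8 and Abcc9 are neighbours on chromosome 4, and in endothelium and smooth muscle their ratios were on the same side of 1. In endothelial cells without Rgs5 or Pdgfrb they were on opposite sides, 0.718 (0.284 to 1.85) for Kcnj8 and 2.19 (1.29 to 3.93) for Abcc9.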
